A study of Homo sapiens with 23 samples.

Results

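The 37 genes encoded on mitochondrial DNA (mtDNA) were followed in nascent transcription libraries from a breast cancer line in which TRPS1 was degraded. The members were the rows whose GENCODE symbol starts with MT-, which makes 37 of 60605 genes in the table. They hold 13 genes for subunits of the respiratory chain, 2 genes for ribosomal RNA and 22 genes for transfer RNA. Of these, 36 passed the low-count filter, and MT-TK, which had 0 counts in all 23 libraries, did not.

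Precision run-on sequencing (PRO-seq) labels the RNA of engaged polymerases in permeabilized cells. The cells were T47D, a luminal breast cancer line that expresses the estrogen receptor, and all came from 1 clone, dTAG-TRPS1 Clone 28. In that clone some TRPS1 copies are knocked out and the protein that remains carries a degron, so the controls carry the tag too. Control cells received DMSO at 0.1% v/v for 24 h (n = 4), and treated cells received dTAG-13 and dTAG-V-1 at 50 nM each, which direct the tagged protein to degradation, for 0.5, 1, 2 or 4 h (n = 4 each) or for 24 h (n = 3, replicates 2 to 4). Each replicate number marks cells treated and harvested at their own time within the same day. Because the ligands act on the protein, the TRPS1 row of the table does not check the treatment.

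Human mtDNA is a small circular genome read by its own polymerase, POLRMT. Both strands are transcribed as long precursors, and enzymes cut these at the tRNA genes, which sit between most of the protein and rRNA genes. The heavy-strand transcript carries both rRNAs, most tRNAs and all but 1 of the protein genes, whereas the light-strand transcript carries MT-ND6 and the remaining tRNAs.

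Total counts ranged from 4408544 to 17571616 per library. Replicate 1 had the lowest total at 4 of the 5 times at which all 4 replicates were present. The luminal markers ESR1 (2517 ± 133 CPM, SD, n = 4), GATA3 (1085 ± 16.7) and KRT8 (128 ± 15.3) were all present in DMSO. PGR, FOXA1, KRT18 and KRT19 stood at 2622, 162, 65.2 and 330 CPM there. The basal keratins KRT5 and KRT14 did not exceed 0.47 CPM in any library. TP63, also a basal marker, was present, at 19.7 ± 1.02 CPM in DMSO and 18.3 to 32.4 CPM over all libraries. In DMSO the leukocyte marker PTPRC stood at 3.11 CPM and the fibroblast marker COL1A1 at 13.5 CPM. CPM scales each count to a common library size (10 to the power of 6 counts) after TMM normalization, and a gene is called at an adjusted p under 0.1 by edgeR's quasi-likelihood test over all genes tested.

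Several mitochondrial tRNA genes have exact copies in the nuclear genome, where a read cannot be placed with certainty. Each 31-base window of each member was therefore searched for on the 24 nuclear chromosomes of hg38. The genes whose values stand out in the results are shown first, each from hg38 chrM, 5′ to 3′ of the gene, with capitals for bases that fall in at least 1 window without a nuclear copy and lower case for bases found only in copied windows. MT-TL1 (chrM:3230-3304, plus strand) had the highest level per length, MT-TV (chrM:1602-1670, plus) and MT-TA (chrM:5587-5655, minus) stood high in replicate 1, MT-TI (chrM:4263-4331, plus) and MT-TT (chrM:15888-15953, plus) stood low in replicate 1, and MT-TK (chrM:8295-8364, plus) and MT-TD (chrM:7518-7585, plus) had the lowest counts.
MT-TL1: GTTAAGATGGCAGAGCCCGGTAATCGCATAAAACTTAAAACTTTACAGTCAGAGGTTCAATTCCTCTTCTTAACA
MT-TV: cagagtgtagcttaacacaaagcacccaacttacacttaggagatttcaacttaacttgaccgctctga
MT-TA: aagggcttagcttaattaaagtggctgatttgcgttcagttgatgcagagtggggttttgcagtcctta
MT-TI: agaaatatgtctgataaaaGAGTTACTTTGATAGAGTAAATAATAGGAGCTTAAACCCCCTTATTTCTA
MT-TT: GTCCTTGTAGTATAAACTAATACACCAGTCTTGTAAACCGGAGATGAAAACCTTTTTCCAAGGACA
MT-TK: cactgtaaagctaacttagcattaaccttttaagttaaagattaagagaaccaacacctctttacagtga
MT-TD: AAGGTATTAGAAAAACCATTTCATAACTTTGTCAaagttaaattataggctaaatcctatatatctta

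MT-TL1, the leucine tRNA that contains the binding site of the termination factor MTERF1, and MT-TT, the threonine tRNA, had no window with an exact nuclear copy. At the other end, 8 tRNA genes had an exact copy of each window somewhere in the nuclear genome. In 7 of them, MT-TQ, MT-TW, MT-TA, MT-TN, MT-TS1, MT-TK and MT-TE, a single nuclear place held all windows. MT-TV had no such place, as at most 22 of its 39 windows lay together, at chr11:10509206-10509257. The lysine tRNA MT-TK had all 40 of its windows at chr1:633464-633533, inside a transcript annotated without a gene name, and a count of 0 allows up to 3 counts, or between 0.165 and 0.794 CPM depending on the library. The aspartate tRNA MT-TD had 34 of its 38 windows in the same neighbourhood of chromosome 1 and a mean of 33.0 counts per library. MT-TA, with all 39 windows at chr1:630757-630825 and again at chr14:32485046-32485114, held a mean of 1189 counts, and MT-TV one of 3246. Whether reads with several matches were kept is not stated in the sources used here.

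Nuclear copies of mtDNA genes that carry their own gene names took a small part of the signal. The table holds 404 such genes, 42 of them with a mean of at least 10 counts, and together they equalled 3.94% to 5.43% of the mtDNA counts of a library (median 4.39%). The copy with most counts was MTND6P3 on chromosome 5, with a mean of 1884 counts. It equalled between 17.3% and 88.6% of the MT-ND6 count across libraries, although only 36 of the 495 windows of MT-ND6 had an exact match in it. MTCO1P12, MTATP6P1 and MTCO2P12 on chromosome 1 equalled a mean of 21.3%, 28.5% and 23.5% of MT-CO1, MT-ATP6 and MT-CO2. Values of members with such copies, and of the overlapping genes MT-ATP8 and MT-ATP6, MT-ND4L and MT-ND4, MT-ATP6 and MT-CO3, MT-TI and MT-TQ, and MT-TC and MT-TY, are uncertain to that extent. MT-TI and MT-TQ lie on opposite strands, and whether reads were counted by strand is not stated.

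The mtDNA genes held between 1.73% (2 h, replicate 2) and 6.50% (4 h, replicate 1) of a library's counts. In DMSO the share was 3.25%, 2.78%, 2.47% and 3.07% in replicates 1 to 4. At 0.5 h it was 4.24%, 2.18%, 2.43% and 2.78%, at 1 h 3.75%, 3.60%, 2.23% and 3.23%, and at 2 h 3.05%, 1.73%, 2.45% and 2.91%. At 4 h it was 6.50%, 2.11%, 2.42% and 3.13%, and at 24 h 2.13%, 2.17% and 2.86% in replicates 2 to 4. Counting error was small beside this spread, as the exact binomial 95% interval of the highest share ran from 6.48% to 6.52%.

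The groups overlapped throughout, and the replicates fell into an order. Replicate 1 was the highest at 5 of 5 times, and replicate 4 exceeded replicates 2 and 3 except at 1 h, where replicate 2 stood at 3.60%. Replicate 3 varied least, with a mean of 2.36% ± 0.128 (SD, n = 6) against 4.16% ± 1.39 in replicate 1 (n = 5), 2.42% ± 0.671 in replicate 2 and 3.00% ± 0.174 in replicate 4 (n = 6 each). Against the same-numbered DMSO library, the share was lower in 13 of 19 treated libraries and higher in 6. All 4 libraries at 2 h and all 3 at 24 h were lower, whereas 3 of 4 at 1 h were higher. No test was run on this sum over members.

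**Figure D1:**
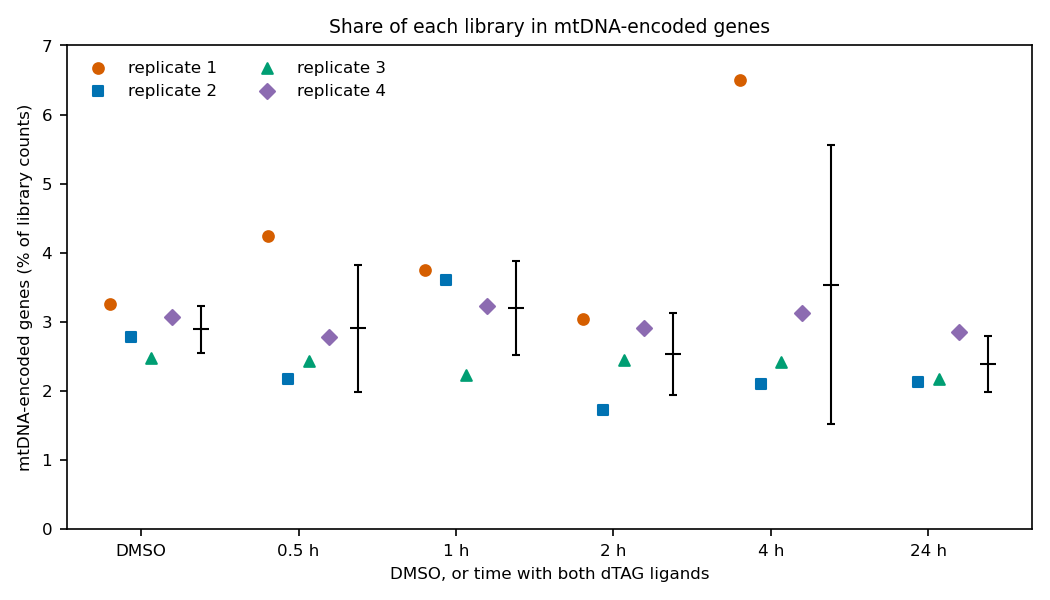
Share of each library's counts in mtDNA-encoded genes (percent, linear axis) by group, with 1 point per library coloured by replicate number and the group mean ± SD at the right of each group (n = 4, and 3 at 24 h). Replicate 1 was the highest at each time at which it was present, and its 4 h library stood at 6.50%.

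Within the mtDNA signal, 3 genes dominated. MT-RNR2 and MT-RNR1, the rRNAs of the large and small mitochondrial ribosomal subunits, gave 27.6% and 16.6% of all mtDNA counts, and MT-TL1, which lies immediately downstream of MT-RNR2, gave 10.5%. These 3 together held 54.8%. In DMSO the rRNA genes held 44.9% ± 1.67 of the mtDNA counts, the protein genes 36.6% ± 2.19 and the tRNA genes 18.4% ± 1.26 (SD, n = 4).

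Per length, both rRNA genes and MT-TV between them stood above the protein genes, with MT-TL1 far above its neighbours. In DMSO, MT-RNR1 and MT-RNR2 stood at 5127 ± 838 and 5192 ± 891 CPM per kb, and MT-TV, the valine tRNA between them, at 5534 ± 1990. MT-TL1 reached 43984 ± 11327 CPM per kb, 8.47 times MT-RNR2. The 12 heavy-strand protein genes lay between 452 (MT-CO1, a cytochrome c oxidase subunit) and 1450 CPM per kb (MT-ATP8, an ATP synthase subunit), with a median of 1005. MT-CYB, the cytochrome b of complex III, stood at 1059 ± 76.8, and the ratio of MT-RNR2 to MT-CYB per kb was 4.90.

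The tRNA genes were the most uneven class. Apart from MT-TL1, the 12 measured heavy-strand tRNAs ranged from 57.4 (MT-TD) to 5534 CPM per kb (MT-TV) with a median of 1105. MT-TS2 and MT-TL2, neighbouring serine and leucine tRNAs between MT-ND4 and MT-ND5, stood at 3481 ± 499 and 3449 ± 404, above MT-ND4 (1445 ± 197) and MT-ND5 (1028 ± 64.0) on either side.

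**Figure D2:**
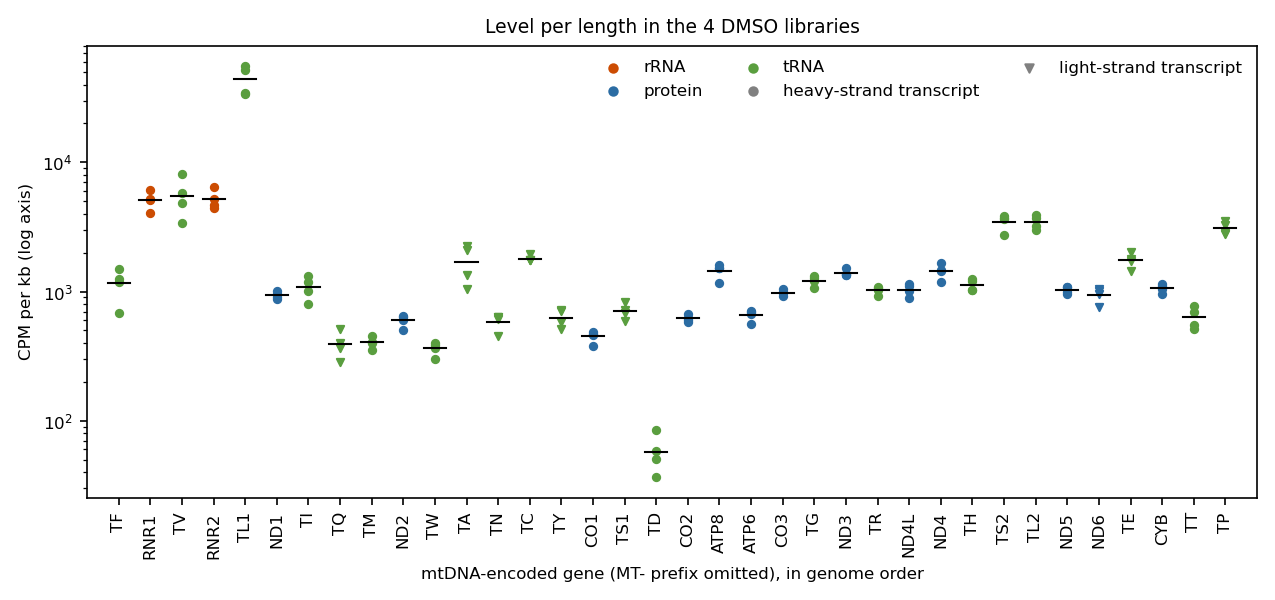
Level of each measured mtDNA gene per length (CPM per kb, log axis) in the 4 DMSO libraries, in genome order, with 1 point per library, a bar at the mean, and colour and marker for RNA class and strand. MT-TL1 stood at 43984 CPM per kb, above MT-RNR1 and MT-RNR2 at 5127 and 5192, and MT-TD was the lowest at 57.4.

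The genes of the light-strand transcript gave a small part of the counts. Since it is not stated whether reads were counted by strand, their values may also hold reads of the heavy strand, and the sums below are over the genes of each transcript. In DMSO its 9 genes held 0.123% ± 0.0121 of a library and the 28 heavy-strand genes 2.77% ± 0.333. Per kb of gene, the light-strand sum was 1134 ± 111 CPM and the heavy-strand sum 1925 ± 264. MT-ND6, the complex I subunit and the only protein gene of this strand, stood at 939 ± 128 CPM per kb, near MT-CYB. The proline tRNA MT-TP, the first gene of the light-strand transcript, stood at 3107 ± 347, and the glutamate tRNA MT-TE next to MT-ND6 at 1747 ± 244. MT-TC and MT-TA reached 1798 ± 104 and 1685 ± 578, whereas MT-TQ was the lowest of the strand at 390 ± 93.9.

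Light-strand counts as a percent of heavy-strand counts were 4.00%, 4.88%, 4.44% and 4.46% in DMSO replicates 1 to 4. Replicate 2 was the highest at 6 of 6 times, with a mean of 5.29% ± 0.255 (n = 6), and replicate 1 the lowest at 4 of 5, with a mean of 4.06% ± 0.243 (n = 5). These 2 replicates did not overlap, as replicate 1 reached at most 4.45% and replicate 2 at least 4.88%. With the protein genes alone the order turned. Replicate 1 was then the highest at 4 of 5 times, with a mean of 5.47% ± 0.678 against 4.81% ± 0.370 over the 18 libraries of replicates 2 to 4. By time, the percent over all genes was 4.45% ± 0.360 in DMSO, 4.55% ± 0.648 after 0.5 h, 4.60% ± 0.394 after 1 h, 4.52% ± 0.610 after 2 h, 4.71% ± 0.633 after 4 h and 5.07% ± 0.393 after 24 h. The 24 h group lacks replicate 1, and each of its 3 libraries was above the DMSO library of its own number.

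**Figure D3:**
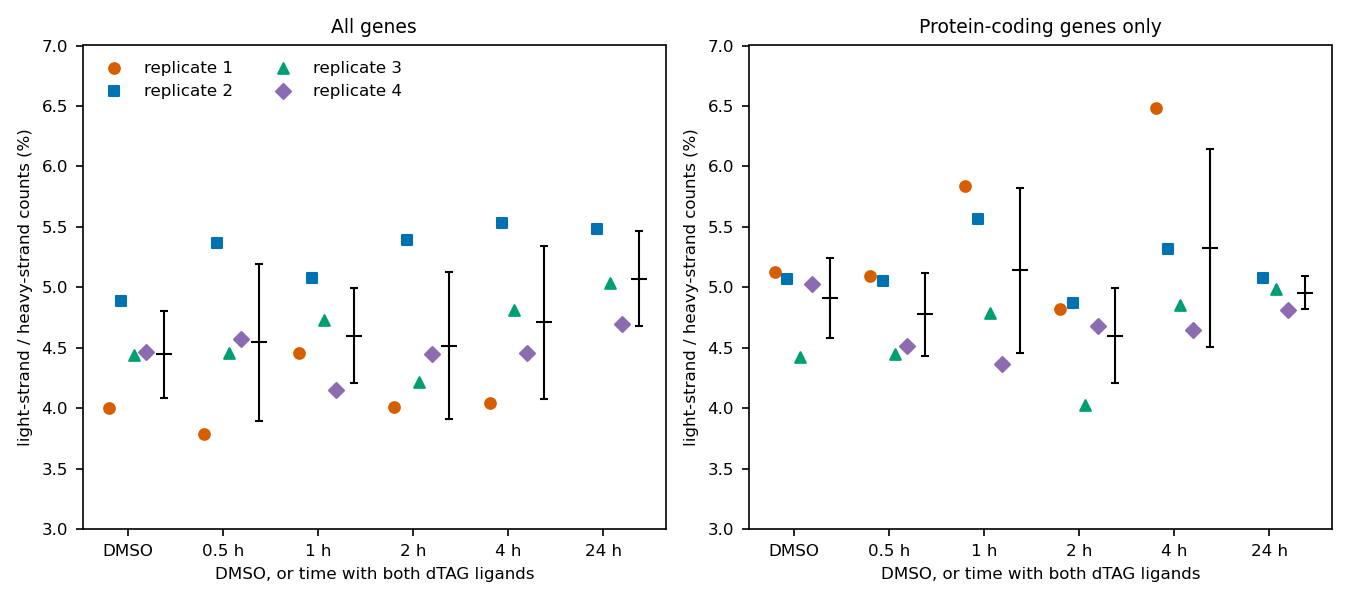
Light-strand counts as a percent of heavy-strand counts by group, over all mtDNA genes (left) and over the protein-coding genes alone (right), with 1 point per library coloured by replicate number and the group mean ± SD. Over all genes replicate 2 was the highest at 6 of 6 times, and over the protein genes replicate 1 was the highest at 4 of 5. Each sum is over the genes of that transcript, and counting by strand is not stated. The vertical axes start at 3%.

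Whether TRPS1 loss changed transcription of mtDNA was asked gene by gene. No member was called at any time against DMSO. The counts were 0 of 36 at 0.5 h, where 0.476% of all 26057 genes tested were called, and 0 of 36 at 1, 2, 4 and 24 h, where 1.25%, 0.733%, 0.833% and 0.863% were called. No member had an unadjusted p under 0.05 at any of these times, and DESeq2, with 1.0%, 1.28%, 1.1%, 1.13% and 1.32% of all genes called, also called 0 members. Over the time course from DMSO to 4 h 0 of 36 were called, against 1.33% of all genes, and only the arginine tRNA MT-TR had an unadjusted p under 0.05 (edgeR adjusted p = 0.465). Between 24 h and 0.5 h 0 of 36 were called, against 1.99% of all genes. At these shares few calls would fall among 36 genes. Whether the members differed from all genes was not tested.

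MT-RNR2 stood at 10025, 7256, 6932 and 8166 CPM in DMSO, 13801, 5408, 6706 and 7039.9 after 0.5 h, 12109, 9383, 6614 and 10371 after 1 h, 9189, 4189.6, 6509.6 and 8024 after 2 h, 21638, 5462, 6562 and 8147 after 4 h and 5226, 5752 and 7449 after 24 h. MT-RNR1 stood at 5843, 4909, 3886 and 4927 CPM in DMSO, 8217, 3405, 3753 and 4224 after 0.5 h, 6843, 5667, 3552 and 5671 after 1 h, 5773, 2771, 4091 and 4823 after 2 h, 12685, 3273, 3954 and 4941 after 4 h and 3494, 3589.8 and 4639 after 24 h. The groups of both rRNA genes overlapped DMSO at 0.5, 1, 2, 4 and 24 h, and replicate 1 held the highest value of each group except 24 h, which lacks it. The log2 fold change of MT-RNR2 against DMSO (± SE) was 0.03 ± 0.35 after 0.5 h, 0.25 ± 0.35 after 1 h, -0.21 ± 0.35 after 2 h, 0.37 ± 0.35 after 4 h and -0.40 ± 0.38 after 24 h. Its 95% interval at 24 h ran from -1.20 to 0.40, and that group lacks replicate 1.

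MT-TL1 stood at 4169, 2552, 2588 and 3886 CPM in DMSO, 6503, 1815, 2216 and 2638 after 0.5 h, 4682, 4934, 1563 and 2129.6 after 1 h, 3695, 1383, 2092 and 3079 after 2 h, 14114, 1730.0, 2003 and 3515 after 4 h and 1918, 1622 and 2900.3 after 24 h. In the 4 h group 3 libraries lay below the DMSO library of the same number, and the log2 fold change of 0.69 ± 0.55 (SE) came with the value of replicate 1. MT-TV stood at 561, 400.2, 235 and 332 CPM in DMSO, 855, 249, 234 and 255 after 0.5 h, 584, 469.9, 183 and 272 after 1 h, 498, 186, 196 and 292 after 2 h, 1428, 224, 200.2 and 297 after 4 h and 234, 178 and 287 after 24 h. MT-TL2 stood at 275, 227, 214 and 262 CPM in DMSO, 457, 177, 193 and 236 after 0.5 h, 379, 324, 138 and 182 after 1 h, 248, 115, 176 and 245 after 2 h, 800.3, 131, 184 and 287 after 4 h and 154, 152 and 249.9 after 24 h. These 3 heavy-strand tRNAs with most counts each had their highest value in the 4 h library of replicate 1.

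Of the protein genes, MT-ND1 is the first, MT-CO1 a middle and MT-CYB the last on the heavy strand. MT-ND1 stood at 909, 837, 865 and 963 CPM in DMSO, 1002, 762, 904 and 1026 after 0.5 h, 938, 983, 840.4 and 1079 after 1 h, 808, 661, 925 and 941 after 2 h, 1343, 789.9, 884 and 1034 after 4 h and 723, 811 and 929.8 after 24 h. MT-CO1 stood at 756, 717, 587 and 725 CPM in DMSO, 1060.1, 558, 633 and 752 after 0.5 h, 908, 876, 541 and 837 after 1 h, 732, 472, 652 and 778 after 2 h, 1565, 569, 606 and 846 after 4 h and 563, 581 and 765 after 24 h. MT-CYB stood at 1294, 1185, 1096 and 1258 CPM in DMSO, 1648, 995, 1125 and 1284 after 0.5 h, 1458, 1462, 964 and 1403 after 1 h, 1172, 844, 1127 and 1272 after 2 h, 2395, 975, 1049 and 1392 after 4 h and 943, 983 and 1229 after 24 h. Each treated group of these 3 genes overlapped DMSO. MT-ND6 stood at 548, 499, 397 and 528 CPM in DMSO, 697, 408, 408 and 498 after 0.5 h, 739, 699, 388 and 537 after 1 h, 466, 318, 376 and 499 after 2 h, 1324, 420.2, 442 and 550.3 after 4 h and 391, 406 and 522 after 24 h. The MT-ND6 groups overlapped DMSO too, and its highest value was again the 4 h library of replicate 1. At 24 h the log2 fold changes of MT-CYB and MT-ND6 were -0.20 ± 0.24 and -0.17 ± 0.31 (SE).

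On the light strand 3 tRNAs held most counts: MT-TP for proline, MT-TE for glutamate and MT-TC for cysteine. MT-TP stood at 190.1, 193, 223 and 239 CPM in DMSO, 247, 182, 202 and 230.1 after 0.5 h, 244, 246, 185 and 226 after 1 h, 188, 130.1, 193 and 220.0 after 2 h, 326, 158, 209 and 234 after 4 h and 167, 192 and 228 after 24 h. MT-TE stood at 123, 140.5, 99.4 and 119.6 CPM in DMSO, 135, 116, 97.4 and 115 after 0.5 h, 136, 199.5, 105 and 137 after 1 h, 109, 113, 102 and 125 after 2 h, 219.6, 134, 112 and 131 after 4 h and 144, 109 and 124 after 24 h. MT-TC stood at 115, 115, 116 and 129 CPM in DMSO, 166, 117, 105 and 109 after 0.5 h, 145, 156, 103 and 109 after 1 h, 128, 82.6, 95.1 and 125 after 2 h, 338, 106, 109.9 and 134 after 4 h and 99.1, 95.6 and 118 after 24 h. The treated groups of these 3 tRNAs overlapped DMSO at 0.5, 1, 2, 4 and 24 h.

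The members with the smallest p at 24 h were small tRNAs. They were MT-TS1, a serine tRNA, with -0.29 ± 0.20 (log2, SE), MT-TD with -0.61 ± 0.46 and MT-TV with -0.71 ± 0.62, and edgeR's adjusted p was 0.862 or above for each. MT-TS1 stood at 49.8, 40.9, 47.3 and 57.1 CPM in DMSO, 47.1, 38.5, 48.4 and 52.4 after 0.5 h, 46.8, 47.6, 39.8 and 50.6 after 1 h, 36.3, 32.3, 41.6 and 52.6 after 2 h, 78.3, 34.0, 46.1 and 50.8 after 4 h and 34.0, 38.9 and 46.7 after 24 h. MT-TD stood at 3.97, 5.74, 2.50 and 3.41 CPM in DMSO, 5.13, 2.86, 2.18 and 1.75 after 0.5 h, 3.81, 5.29, 2.10 and 3.31 after 1 h, 4.76, 5.09, 2.89 and 1.92 after 2 h, 7.94, 4.23, 1.48 and 3.52 after 4 h and 3.62, 1.98 and 2.10 after 24 h. Both genes overlapped DMSO at 24 h. Over the time course the smallest p-values were those of MT-TR, MT-ND3 (a complex I subunit) and MT-TE. MT-TR stood at 66.6, 60.1, 70.1 and 69.0 CPM in DMSO, 64.8, 73.2, 73.3 and 68.7 after 0.5 h, 60.5, 81.7, 64.5 and 66.0 after 1 h, 53.0, 52.3, 61.2 and 70.4 after 2 h, 88.4, 75.1, 71.0 and 72.5 after 4 h and 58.8, 61.5 and 75.4 after 24 h. MT-ND3 stood at 462, 463, 471 and 523 CPM in DMSO, 578, 412, 474 and 561 after 0.5 h, 555, 614, 444 and 577 after 1 h, 404, 312, 467 and 545 after 2 h, 1038, 393, 547 and 618 after 4 h and 360.5, 469 and 605 after 24 h. MT-TR had its lowest values at 2 h, in replicates 2 and 1. At 4 h its 4 libraries all lay above the DMSO libraries, with a log2 fold change of 0.20 ± 0.10 (SE) and an edgeR adjusted p of 0.730, where 0.833% of all genes were called.

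The median of the members moved by small amounts, and no test was run on it. The median log2 fold change was 0.046 after 0.5 h, 0.16 after 1 h, -0.15 after 2 h, 0.33 after 4 h and -0.14 after 24 h, beside 0.01, 0.01, 0.00, 0.01 and 0.00 over all genes tested. All 36 were above 0 at 4 h and 1 of 36 at 2 h. The median at 4 h depended on 1 library. Without the 4 h library of replicate 1, the median at 4 h was -0.06 and 12 of 36 members were above 0. In that fit 0 of 36 were called in the 5 comparisons with DMSO, where 0.567%, 1.4%, 0.857%, 0.787% and 1.06% of all genes were called. The members share their libraries and their precursors, so these 36 values are not independent.

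**Figure D4:**
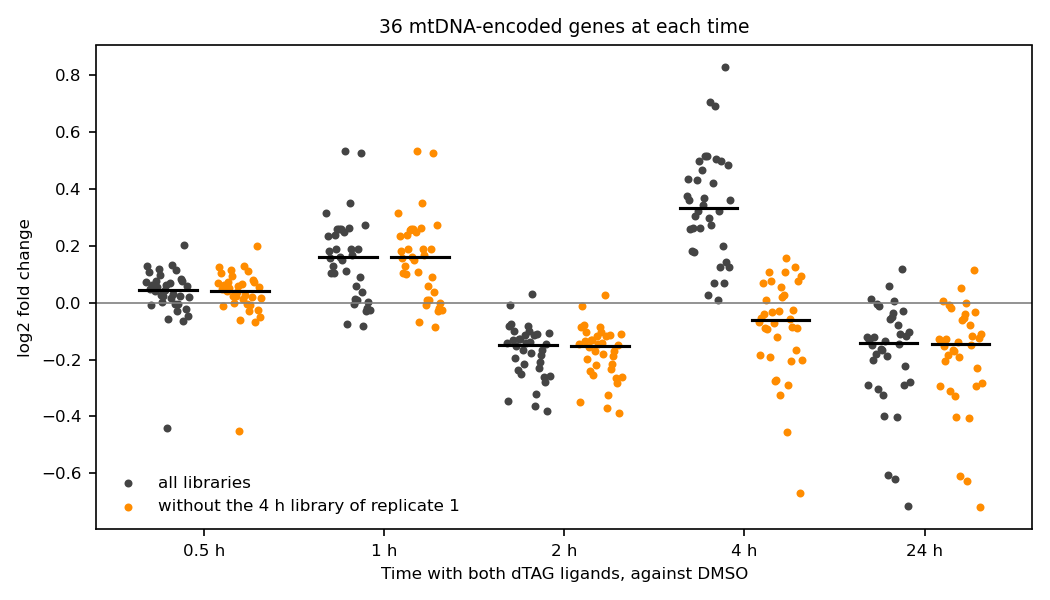
Log2 fold change against DMSO of each of the 36 measured mtDNA genes at each time (edgeR), with all libraries (grey) and without the 4 h library of replicate 1 (orange), and a bar at the median. The median at 4 h moved from 0.33 to -0.06 when that library was left out, and none of the 36 genes was called in either fit.

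With the replicate number as a block the standard errors fell, from a median of 0.27 to 0.18 (log2) in the 4 h comparison, and 0 of 36 members were called at each of the 5 times, where 2.48%, 3.25%, 2.43%, 2.49% and 2.65% of all genes were called. Under the block, the glutamine tRNA MT-TQ and the alanine tRNA MT-TA had an unadjusted p under 0.05 at 1 h, at 0.51 ± 0.22 and 0.50 ± 0.18 (edgeR adjusted p = 0.289 and 0.204). At 4 h there were 5 such members, MT-TH, MT-ND4L, MT-ND3, MT-TE and MT-CO2, with log2 fold changes from 0.23 to 0.41 and an adjusted p of 0.342 or above.

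The ratio of 2 genes within a library does not depend on library size. The ratio of MT-ND6 to MT-CYB counts sets the protein gene of the light-strand transcript beside the last one of the heavy-strand transcript, and it compares the strands only if reads were counted by strand, which is not stated. In DMSO it was 0.424, 0.421, 0.362 and 0.420, at 2 h 0.397, 0.377, 0.334 and 0.392, and at 4 h 0.553, 0.431, 0.421 and 0.395. Each of the 4 libraries at 2 h was below its DMSO partner. On the log2 scale the differences from DMSO lay between -0.12 ± 0.08 (2 h) and 0.14 ± 0.12 (4 h), and the smallest of the 5 exact permutation p-values was 0.2 (2-sided, adjusted p = 0.686 over 10 tests). That test did not pair libraries by number. Within same-numbered pairs the 2 h difference was -0.12 with an SD of 0.03 between pairs. Its p with signs flipped within pairs was 0.125 (adjusted p = 0.417). This is the smallest p that 4 pairs allow, so the paired test could not reach the threshold. At the other times the sign-flip p was 0.25 or above.

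The ratio of MT-RNR2 to MT-CYB compares the start of the heavy-strand transcript with its end. It was 7.74, 6.12, 6.33 and 6.49 in DMSO, 8.31, 6.42, 6.86 and 7.39 at 1 h, and 5.54, 5.85 and 6.06 at 24 h. Each of the 4 libraries at 1 h was above its DMSO partner and each of the 3 at 24 h below it. The log2 difference was 0.12 ± 0.11 at 1 h (exact permutation p = 0.286). At 24 h it was -0.19 ± 0.08 (exact permutation p = 0.0571, adjusted p = 0.571), where the smallest p the design allows is 0.0286. The 24 h group lacks replicate 1, which had the highest ratio in DMSO. Without replicate 1 the difference at 24 h was -0.12 ± 0.05 (exact permutation p = 0.1, the smallest that 3 against 3 allows). With signs flipped within same-numbered pairs the p was 0.125 at 1 h and 0.25 at 24 h (adjusted p = 0.417 at both times). Each is the smallest p that its number of pairs allows, so this test could not reach the threshold at either time.

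By replicate number nearly all members were called. In a fit with time and replicate number, 33 of 36 members were called for a difference between replicates, where 34.6% of all 26057 genes were called. The 3 not called were the tRNAs MT-TW, MT-TG and MT-TR. Replicate number held 83.6% of the variation within times of the MT-RNR2 to MT-CYB ratio (permutation p = 1e-05, the smallest that 100000 resamples can give) and 59.2% of that of the MT-ND6 to MT-CYB ratio (permutation p = 0.00129).

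Replicate 1 was set against replicates 2 to 4 because earlier results of these data had shown it to stand apart. The p-values of this contrast are therefore not those of a choice made before the data were seen. In it, 26 of 36 members were called, 24 higher and 2 lower, where 21.4% of all genes were called, 13.1% higher and 8.23% lower. The median log2 difference of the members was 0.51, beside -0.01 over all genes tested. DESeq2 called 25, where 17.4% of all genes were called, 11.9% higher and 5.53% lower. Scaling by total counts alone called 26, 23 higher and 3 lower, where 46.8% of all genes were called, 9.11% higher and 37.7% lower, and the median of all genes stood at -0.13. By class, 2 of 2 rRNA genes, 10 of 13 protein genes and 12 of 21 measured tRNA genes were higher. On the light strand 6 of 9 members were higher and none was lower.

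The rRNA genes rose together. MT-RNR2 stood at 10025, 13801, 12109, 9189 and 21638 CPM in replicate 1 (DMSO and 0.5 to 4 h) and between 4190 and 10371 with a median of 6819 in the other 18 libraries. MT-RNR1 stood at 5843, 8217, 6843, 5773 and 12685 CPM and between 2771 and 5671 with a median of 4022. The MT-RNR1 values did not overlap, and those of MT-RNR2 overlapped only at its lower end. The log2 differences of MT-RNR2 and MT-RNR1 were 0.90 ± 0.13 and 0.88 ± 0.13 (SE), and edgeR's adjusted p-values were 1.23e-05 and 2.61e-05.

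Among the tRNAs the difference ran from 1.53 down to -0.65. MT-TV stood at 561, 855, 584, 498 and 1428 CPM in replicate 1 and between 178 and 470 elsewhere (median 242), with no overlap and a log2 difference of 1.53 ± 0.17. MT-TL1 stood at 4169, 6503, 4682, 3695 and 14114 CPM against 1383 to 4934 (median 2173), a difference of 1.32 ± 0.24. MT-TA on the light strand stood at 145, 224, 234, 146 and 352 CPM against 72.3 to 215 (median 100.0), a difference of 1.04 ± 0.13. MT-TL2 differed by 1.01 ± 0.19 and was highest in replicate 1 at 5 of 5 times.

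The isoleucine tRNA MT-TI went the other way. It stood at 54.9, 48.9, 52.7, 44.7 and 60.3 CPM in replicate 1 and between 57.6 and 93.0 elsewhere (median 83.7), the lowest replicate at 5 of 5 times. Its difference of -0.65 ± 0.07 had an edgeR adjusted p of 2.26e-07, the smallest among the members. MT-TI overlaps MT-TQ by a few bases on the opposite strand, and MT-TQ rose by 0.60 ± 0.16. MT-TT, printed above beside it, fell by 0.30 ± 0.10 (adjusted p = 0.0436), with 34.0, 35.7, 30.7, 27.1 and 53.4 CPM against 30.7 to 53.1. The call of MT-TT was lost without replicate 3 or without replicate 4 (edgeR adjusted p = 0.168 and 0.184).

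Protein genes rose by less. ATP synthase subunit MT-ATP8 had the largest difference at 0.79 ± 0.17, followed by the complex I subunits MT-ND4 at 0.68 ± 0.14 and MT-ND6 at 0.65 ± 0.13. MT-CO1 differed by 0.55 ± 0.12 and MT-CYB by 0.44 ± 0.10, with 732 to 1565 CPM (MT-CO1) and 1172 to 2395 CPM (MT-CYB) in replicate 1 against 472 to 876 and 844 to 1462 elsewhere. MT-ND1, MT-CO2 and MT-ND3 had differences of 0.15 ± 0.07, 0.18 ± 0.08 and 0.25 ± 0.12 and were not called. On the light strand MT-TC differed by 0.58 ± 0.14, whereas MT-TP and MT-TE, with 0.21 ± 0.09 and 0.22 ± 0.09, were not called.

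**Figure D5:**
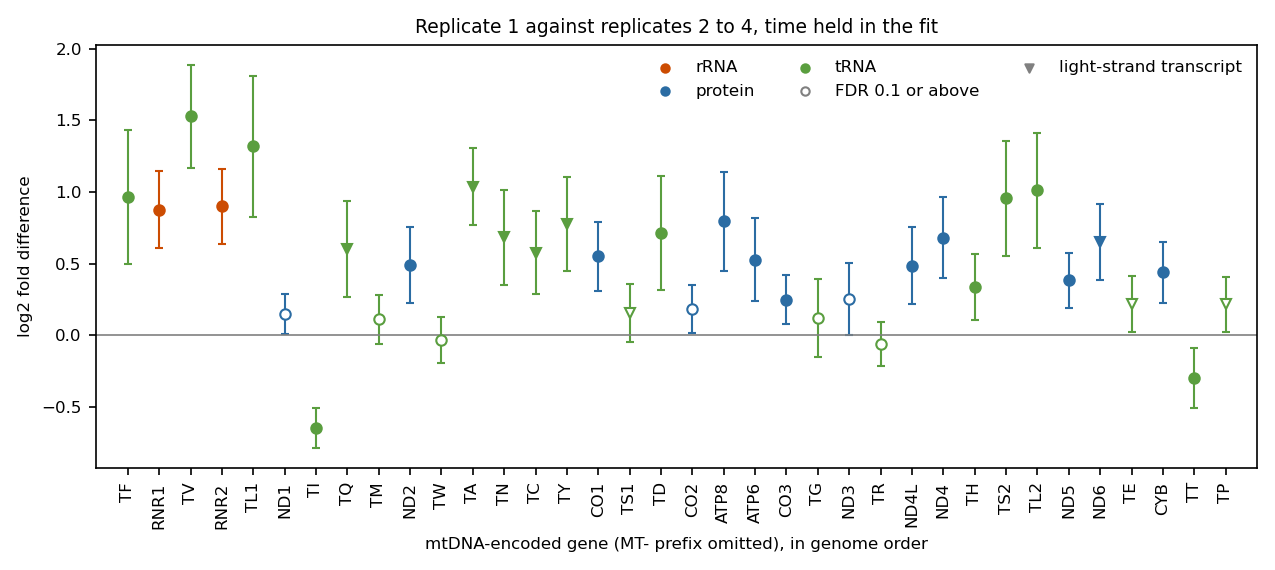
Log2 difference between replicate 1 and replicates 2 to 4 for each measured mtDNA gene in genome order (edgeR, time held in the fit), with 95% intervals, colour for RNA class and open markers for genes not called at an adjusted p under 0.1. MT-TV was the highest at 1.53, and MT-TI and MT-TT were called lower, at -0.65 and -0.30.

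The replicate 1 difference was set beside 3 features of a gene, as a description with no test. Over the 36 members it correlated with the level per length in DMSO at a Spearman rho of 0.45 (Pearson r = 0.46 on log2 levels), with gene length at 0.17 and with the percent of copied windows at 0.07. The points share the same libraries, and the level in DMSO includes 1 library of replicate 1. Of the named nuclear copies with most counts, MTND6P3 was higher in replicate 1 by 1.65 ± 0.22 and MTATP8P1 by 1.23 ± 0.20. MTATP6P1 (0.57 ± 0.11), MTCO3P12 (0.42 ± 0.11), MTND4P12 (0.41 ± 0.10) and MTCO1P12 (0.41 ± 0.10) were called higher too. MTND2P28 (0.22 ± 0.09), MTND5P11 (0.13 ± 0.09) and MTCO2P12 (0.01 ± 0.07) were not called. In this contrast 21.4% of all genes were called.

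Several classes of nuclear noncoding RNA genes also differed in the same libraries. Small nucleolar RNA genes took 0.682% to 1.11% of counts in replicate 1 and 0.167% to 0.462% elsewhere, and small nuclear RNA genes 1.12% to 1.63% against 0.524% to 0.893%. Nuclear rRNA genes took 0.224% to 0.483% against 0.0154% to 0.137%. Small Cajal body RNA genes took 0.00753% to 0.0118% against 0.00257% to 0.00577%, and microRNA genes 0.1117% to 0.170% against 0.0559% to 0.1115%. In none of these 5 classes did replicate 1 overlap the other replicates, although the microRNA ranges nearly met. Genes annotated as other RNA (0.455% to 0.843% against 0.183% to 0.640%), long noncoding RNA genes (10.8% to 11.2% against 10.4% to 10.96%) and nuclear protein-coding genes (75.3% to 80.9% against 80.8% to 84.0%) overlapped. Replicate 1 was also the shallowest at 4 of 5 times. Their part in the mtDNA differences was not tested. The 4 h library of replicate 1 also weighed on the result, as 20 of 36 members were called without it, 18 higher and 2 lower, where 15.7% of all genes were called, 10.6% higher and 5.09% lower, and the median difference was then 0.29.

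Nuclear genes that transcribe, process or partner the mtDNA products were nearly all uncalled against DMSO, where 0.476% to 1.25% of all genes were called at each time. At such shares lists of this size hold few calls, and whether they differed from all genes was not tested. Of 17 genes for mtDNA transcription and replication, which include the polymerase POLRMT and the promoter factor TFAM, 0 were called at each of the 5 times against DMSO, with medians from 0.01 to 0.05 (log2). Of 9 nuclear regulators of mitochondrial genes and of 75 nuclear respiratory chain subunits, 0 were called at each of the 5 times. Of 20 genes for mitochondrial RNA processing and stability, 1 was called. ELAC2, which cuts the 3′ end of tRNAs out of the precursor, was higher at 0.5 h by 0.21 ± 0.05 (log2, SE; edgeR adjusted p = 0.0999). That call was lost when any single replicate was left out. With the replicate block ELAC2 was called at 0.5 h and also at 1 h, by 0.21 ± 0.05 and 0.18 ± 0.05 (adjusted p = 0.0191 and 0.0507). There 2.48% and 3.25% of all genes were called. PNPT1, an exoribonuclease of mitochondria, had a log2 difference of -0.28 ± 0.06 between 24 h and 0.5 h (adjusted p = 0.0367). It was the only 1 of the 20 called there, where 1.99% of all genes were called. With the replicate block 5 of the 20 were called between 24 h and 0.5 h, where 6.34% of all genes were called. PNPT1 (-0.29 ± 0.05), ELAC2 (-0.17 ± 0.05), LRPPRC (-0.14 ± 0.05) and TBRG4 (-0.22 ± 0.07) were lower at 24 h, and FASTKD1 (0.33 ± 0.10) was higher, with adjusted p-values from 0.00234 to 0.0940. In the other lists TFAM (-0.14 ± 0.04) and COX7C (-0.17 ± 0.04), a cytochrome c oxidase subunit, were then called too. ELAC2 was also called over the time course with the block (adjusted p = 0.0483), where 4.6% of all genes were called. With the block, 0 of 36 mtDNA genes were called in these 2 comparisons.

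The same lists were compared between replicate 1 and replicates 2 to 4, where, as above, 21.4% of all genes were called, 13.1% higher and 8.23% lower. Whether they differed from the mtDNA genes was not tested. Of the 17 transcription and replication genes 0 were higher and 3 lower (POLG, MTERF2 and MTERF1), and of the 20 processing genes 3 were higher (TBRG4, HSD17B10 and REXO2) and 0 lower. Of the 9 regulators 1 was lower (PPARGC1B), and of the 75 respiratory chain subunits 12 were higher and 4 lower. These genes were named after their values were seen. The list medians lay between -0.05 and 0.04, beside -0.01 over all genes. ATP5F1B, an ATP synthase subunit named here after its value was seen, was higher by 1.47 ± 0.11 in replicate 1, and the next largest difference in its list was 0.40 (NDUFS7).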

How the data were processed

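The values the authors deposited are raw PRO-seq counts, 1 whole number for each gene and library. Per the labels and the study's methods, adapters were removed (cutadapt 1.8.1), duplicates were collapsed by a random molecular identifier, reads matching ribosomal DNA were discarded, and the rest were aligned to hg38 (Bowtie2 2.4.4, SAMtools 1.9). The annotation release and the use of strand are not given in the sources used here. Of 60605 identifiers, 60463 matched GENCODE release 44, which gave symbols and coordinates. With duplicates collapsed a count is meant to approximate molecules, and intervals cover counting error only. Whether separate molecules of the most abundant members were collapsed as well was not tested.

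Members and gene lists were chosen with earlier results of these data known. The tests were run with edgeR 4.0.16 under R 4.3.3 (filterByExpr, minimum count 10 and total 15; TMM; glmQLFit and glmQLFTest; Benjamini-Hochberg over all genes kept; threshold 0.1). Genes passing the filter made up 99.5% to 99.6% of the counts. Times were contrasted with DMSO in 1 fit of all 23 libraries, the course used 20 libraries, and replicate tests held time in the fit. The scripts were tested on simulated data. DESeq2 1.42.0, other scalings, no filter, leaving out each replicate and a replicate block were alternatives. Standard errors are the fold change over the square root of its F statistic. Shares and strand sums were given without a test. Ratios used exact permutation, or 100000 resamples within times for replicate number.

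The rule for naming took the 2 rRNA genes, MT-ND1, MT-CO1, MT-CYB and MT-ND6, the 3 tRNAs with most counts on each strand, and the 3 members with the smallest p in the time course, at 24 h and in replicate 1. Other members are named where a count or an extreme asked for it. Of a nuclear list, genes called against DMSO were named. Windows of 31 bases were compared with chromosomes 1 to 22, X and Y.

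Same-numbered libraries were harvested together, and their deviations from group means correlated at a mean r of 0.29 (55 pairs, lowest -0.06) against -0.08 between numbers (165 pairs). Within a group, 2 libraries differed by a chi-square of 1.63 to 44.8 per degree of freedom, so none was taken for a duplicate. The replicates come from 1 clone. The sources used here name only the harvest as a difference between them and do not state how libraries were batched. In the fits with time alone, p-values measure the spread between these cultures. In the replicate tests they measure the spread left between libraries after time and replicate number are fitted. Replicate 1 is 1 harvest, so those p-values do not measure the spread between harvests. The 24 h group starts at replicate 2, and no other 24 h library was used here.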

Additional observations from a re-analysis of the deposited data

Results flagged for a closer look

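In groups of 4 libraries, 10 of 80 groups of named measures held a library far from the rest of its group by Dixon's ratio. For a single group chance gives about 1 in 20. The 80 groups share libraries and precursors and are not independent, so no excess over chance can be read from the 10. In 5 of the 10 flagged groups the 4 h library of replicate 1 was far above the others: MT-RNR2 (21638 CPM), MT-TL1 (14114 CPM), MT-TV (1428 CPM), MT-ND6 (1324 CPM) and MT-TC (338 CPM). The 0.5 h library of replicate 1 was far above in MT-RNR1 (8217 CPM) and MT-TV (855 CPM). The remaining 3 were MT-CYB at 1 h in replicate 3 (964 CPM, low), MT-TC in DMSO replicate 4 (129 CPM, high) and the MT-ND6 to MT-CYB ratio in DMSO replicate 3 (0.362, low).

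Against the same-numbered DMSO libraries, the MT-RNR2 to MT-CYB ratio moved in opposite directions at 1 h and 24 h. All 4 libraries at 1 h were higher, by a mean of 0.573, and all 3 at 24 h were lower, by a mean of -0.496. These means are in units of the count ratio and not log2. The difference between the 2 times was not tested.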

How the results depend on the processing

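The 0 calls over time among the 36 mtDNA genes held under each alternative run: DESeq2, median-of-ratios and total-count scaling, TMM without mtDNA genes, no low-count filter, the replicate block, each replicate left out and the added setting without the 4 h library of replicate 1. With total counts only, 30, 142, 78, 87 and 110 of 26057 genes were called against DMSO at 0.5, 1, 2, 4 and 24 h. Few calls could therefore fall among 36 genes, and these zeros do not set the members apart from all genes. Since same-numbered libraries pair by harvest, the replicate block was run throughout and changed no call of an mtDNA gene. Calls by replicate number numbered 29 to 34. In the main fit 34.6% of all genes were called, and with total counts only 13308 of 26057 genes. The share in the other settings is not given, so their counts cannot be set beside it. Calls in replicate 1 numbered 26 with all libraries (21.4% of all genes called) and 25 with DESeq2 (17.4%). They numbered 20 without the 4 h library of replicate 1 (15.7%), a setting chosen after seeing the data. Without replicates 2, 3 and 4 they numbered 26, 21 and 28. Without the filter they numbered 32, in a fit whose prior degrees of freedom were infinite, so that its p-values use no spread of the single gene. For the fits without a replicate or without the filter, the share of all genes called is not given. Whether those counts of members exceed that share therefore cannot be read from them. With total counts only, the median of all genes in that comparison moved to -0.13 and that of the members to 0.38, and the split was 23 higher and 3 lower.

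Small log2 fold changes changed sign, and the cause was not tested. At 0.5 h, MT-RNR2 went from 0.025 to -0.067 with the replicate block and -0.0073 with total counts, and MT-ND6 from 0.027 to -0.0085 with the block. Without the 4 h library of replicate 1, the 4 h values of MT-RNR2, MT-CYB and MT-ND6 were -0.27, -0.090 and -0.071. With each replicate left out in turn, MT-RNR2 ranged from -0.23 to 0.13 at 0.5 h and from -0.15 to 0.53 at 4 h, MT-CYB from -0.059 to 0.15 and from -0.056 to 0.40, and MT-ND6 from -0.12 to 0.12 and from -0.017 to 0.65. The lowest values came without replicate 1. Likewise the log2 MT-ND6 to MT-CYB ratio at 24 h ranged from -0.0074 to 0.064, and the MT-RNR2 to MT-CYB ratio at 4 h from -0.098 to 0.026 by replicate and -0.17 without the 4 h library of replicate 1.

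Among RNA processing genes the count at 0.5 h was 0 without any 1 of the replicates (lowest and highest 0). With the replicate block it was 1 at 1 h, 5 in place of 1 between 24 h and 0.5 h and 1 in place of 0 over the time course. In these 3 comparisons the block called 3.25%, 6.34% and 4.6% of all genes. Shares depend on what is counted. As a percent of nuclear protein-coding counts they were 3.52 in DMSO, 3.95 after 1 h, 2.86 after 24 h and 3.13 in replicates 2 to 4. Without the 2 rRNA genes they were 1.59 in DMSO, 1.62 after 0.5 h, 1.73 after 1 h, 1.39 after 2 h, 1.36 after 24 h, 2.20 in replicate 1 and 1.46 in replicates 2 to 4. Light as a percent of heavy over protein genes was 4.91 in DMSO, 5.14 at 1 h and 5.47 in replicate 1. MT-TD was no longer called in replicate 1 without replicate 3 (adjusted p = 0.103). MT-TD, with 18 to 64 counts a library, is the measured member that depth limits most.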
